A study of Mus musculus with 15 samples.

Results

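The regions described here are promoters that carried a called region of histone H3 lysine 27 acetylation (H3K27ac) in both H3.3 conditional knockout (cKO) libraries and in neither wild-type (WT) library of mouse bone marrow-derived macrophages (BMDMs). The 4 H3K27ac lists were merged, and a merged region was kept when both cKO lists and no WT list overlapped it by at least 1 bp. Its midpoint also had to lie from 1 kb upstream to 100 bp downstream of the start site of a protein-coding gene in the GENCODE M21 basic annotation (mm10). Of 89773 merged regions on chromosomes 1 to 19 and X, 2995 were found in both cKO lists but neither WT list and 460 of these lay at a promoter. The 460 regions are 11.8% of the 3889 merged regions at a promoter and touch 497 protein-coding genes. The regions were chosen by the H3K27ac calls of all 4 libraries, so the H3K27ac values below are a description without a test.

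All marks were profiled by CUT&RUN, which cuts and sequences the DNA next to an antibody bound to its target in intact nuclei. WT cells carried floxed H3f3a and H3f3b, the genes that encode the histone variant H3.3, without Cre. H3.3 cKO cells carried the same floxed alleles and LysM-Cre, a Cre placed at Lyz2 that is active in macrophages and granulocytes. WT cells had no Cre, so an effect of Cre itself and of H3.3 loss cannot be told apart. WT and cKO stand throughout for the libraries labelled so, because the lists at H3f3b, given below, do not show its deletion. H3.3-HA cells came from knock-in mice with an HA-tagged H3f3b. Bone marrow cells of mice on a C57BL/6 background were cultured for 6 to 8 days, and each group had 2 libraries, so p-values measure only the spread between those libraries.

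The H3K27ac lists differed in more than genotype. Depth ran from 16444864 to 28366343 tags in WT and from 25560110 to 29988098 in cKO. The lists were longer in WT (54630 to 61764 regions) than in cKO (35018 to 41444 regions), and tags in regions made up 21.5% to 24.1% in WT and 11.8% to 17.8% in cKO. WT and cKO libraries were called against different IgG controls. As a check of cell type, 7 of 7 defining macrophage genes (Csf1r, Adgre1, Itgam, Cd68, Lyz2, Spi1 and Mertk) had an H3K27ac region in the gene body or 5 kb upstream in both WT libraries and in cKO replicate 2. In cKO replicate 1 it was 6 of 7, with no region at Mertk. The wider macrophage identity list had a region at 59 and 58 of 61 genes in WT and at 58 and 56 in cKO. Markers of neutrophils had a region at 10 and 11 of 22 genes in WT and at 10 and 12 of 22 in cKO. These are near the share of all protein-coding genes, 46.6% of which had a region there in both WT libraries. Lists of other mature cell types ranged from 13.3% to 50% of genes in WT and from 12.9% to 44.4% in cKO. The list of stem and progenitor markers had 7 and 6 of 21 genes with a region in WT and 11 and 9 of 21 in cKO, and the part of such cells in the values below was not tested.

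H3K27ac is an acetyl mark laid down at active promoters and enhancers, whereas H3K36me3 is laid down across gene bodies by an enzyme that travels with elongating RNA polymerase II. H3.3 is the replacement form of histone H3 that is put into chromatin outside DNA replication, including at active genes. Many mammalian promoters lie in CpG islands, stretches rich in the CpG dinucleotide that mark housekeeping genes, whereas promoters of inducible immune genes are often poor in CpG. Interferon-stimulated genes (ISGs) often carry an interferon-stimulated response element (ISRE), the site bound by interferon regulatory factors and the ISGF3 complex.

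Promoter sequences of 6 members are shown from 250 bp upstream to 30 bp downstream of the start site, read 5′ to 3′ from the GRCm38.p6 assembly of RefSeq, the same build as mm10. Tgtp1 and Ifit1bl1 are shown because they belong to the interferon list and hold an ISRE, and the other 4 because they head the order by called H3K27ac length and hold a motif. Capitals mark every match to a searched motif.
Tgtp1, chr11:48992229-48992508, minus strand: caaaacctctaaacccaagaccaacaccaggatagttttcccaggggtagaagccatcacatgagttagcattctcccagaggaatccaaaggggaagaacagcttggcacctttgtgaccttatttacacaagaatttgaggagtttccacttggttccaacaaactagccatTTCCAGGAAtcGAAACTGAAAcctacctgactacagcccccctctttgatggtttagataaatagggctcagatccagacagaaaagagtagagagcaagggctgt
Ifit1bl1, chr19:34599298-34599577, minus strand: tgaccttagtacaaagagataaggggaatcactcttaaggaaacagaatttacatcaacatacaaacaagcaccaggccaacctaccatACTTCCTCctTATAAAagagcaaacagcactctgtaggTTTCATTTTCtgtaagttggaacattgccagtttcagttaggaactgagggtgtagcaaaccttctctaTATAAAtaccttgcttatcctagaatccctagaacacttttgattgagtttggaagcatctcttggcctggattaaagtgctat
Itgb7, chr15:102231915-102232194, minus strand: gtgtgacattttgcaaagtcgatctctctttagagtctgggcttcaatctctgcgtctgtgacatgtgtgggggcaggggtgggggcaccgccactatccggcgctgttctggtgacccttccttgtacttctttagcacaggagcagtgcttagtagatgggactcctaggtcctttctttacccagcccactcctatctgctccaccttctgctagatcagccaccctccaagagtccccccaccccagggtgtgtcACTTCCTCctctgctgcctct
Rgs2, chr1:144004132-144004411, minus strand: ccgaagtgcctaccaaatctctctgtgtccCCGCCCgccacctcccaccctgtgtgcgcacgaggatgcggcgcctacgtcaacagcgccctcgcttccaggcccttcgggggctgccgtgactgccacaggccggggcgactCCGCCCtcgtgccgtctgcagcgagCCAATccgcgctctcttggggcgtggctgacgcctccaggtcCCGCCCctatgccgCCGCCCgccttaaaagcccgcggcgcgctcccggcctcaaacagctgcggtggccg
Elavl1, chr8:4325384-4325663, minus strand: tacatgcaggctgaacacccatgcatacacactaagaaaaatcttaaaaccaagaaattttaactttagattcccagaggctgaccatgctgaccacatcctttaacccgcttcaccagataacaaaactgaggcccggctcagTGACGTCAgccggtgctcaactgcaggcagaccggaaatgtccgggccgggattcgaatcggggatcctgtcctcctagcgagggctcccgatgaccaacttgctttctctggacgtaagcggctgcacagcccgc
Rad51b, chr12:79297313-79297592, plus strand: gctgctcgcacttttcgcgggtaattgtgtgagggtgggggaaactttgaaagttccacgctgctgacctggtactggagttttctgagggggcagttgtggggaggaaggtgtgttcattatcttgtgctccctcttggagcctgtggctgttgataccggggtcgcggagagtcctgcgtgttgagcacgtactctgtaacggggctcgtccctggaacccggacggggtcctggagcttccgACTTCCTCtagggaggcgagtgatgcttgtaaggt
In Tgtp1, an interferon-inducible GTPase, the capitals are a GAS element (TTCNNNGAA) whose first base lies at position -76 from the start site and an ISRE (GAAANNGAAA) at -65. In Ifit1bl1, a gene of the IFIT family, they are an ISRE at -123 on the opposite strand, a PU.1 site (GAGGAAGT) and a pair of TATA boxes (TATAAA). Itgb7 and Rad51b hold a PU.1 site, Elavl1 a cyclic AMP response element (CRE, TGACGTCA), and Rgs2 a CCAAT box of NF-Y and 4 GC boxes (GGGCGG). Over these 280 bases the ratio of observed to expected CpG was 0.0698 in Tgtp1 and 0 in Ifit1bl1, against 0.959 in Rgs2 and 0.729 in Elavl1.

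The member regions were short, with a median width of 1139 bp (quartiles 882 and 1688 bp). Their midpoints had a median position of -149.5 bp from the start site, where negative values lie upstream. The rule reaches 1 kb upstream but only 100 bp downstream, so an upstream centre is largely set by it. Under the same window the median was -198 bp in promoter regions called in all 4 libraries and -229 bp in all merged promoter regions. Called length was 501 to 5445 bp with a median of 775 bp in cKO replicate 1, and 501 to 7722 bp with a median of 1103 bp in cKO replicate 2. It was 0 bp in both WT libraries by construction. The region was longer in cKO replicate 2 at 367 of the 460 members, longer in cKO replicate 1 at 69 and equal at 24. At 129 members cKO replicate 1 was at 501 bp, the shortest length that the lists hold, and at 39 members cKO replicate 2 was.

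**Figure D1:**
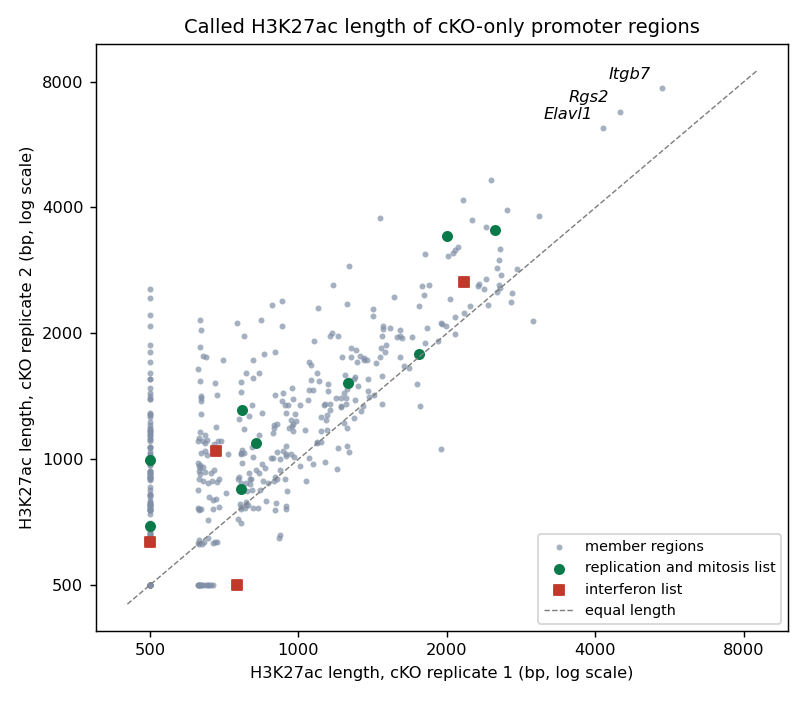
Called H3K27ac length in bp of the 460 member regions in cKO replicate 1 (x axis) and cKO replicate 2 (y axis), both on log scales, with members of the interferon and replication lists marked and a dashed line at equal length. Most points lie above the line (367 of 460), the column at the left holds 129 regions at 501 bp in replicate 1, and Itgb7, Rgs2 and Elavl1 are the longest.

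Promoter regions called in all 4 libraries (1413 regions) were wider, with a median of 2754 bp, and the 215 promoter regions called in both WT and neither cKO library had a median of 878 bp. The start site itself lay inside 403 of the 460 member regions (87.6%), inside 98.4% of the regions called in all 4 libraries and inside 54.4% of the WT-only regions. A start site of another gene on the opposite strand lay within 1 kb upstream at 73 members (15.9%). In the same classes this share was 20.9% and 6.98%, and over all 3889 merged promoter regions it was 15.9%, as in the members.

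Members often had WT H3K27ac nearby. The nearest WT region lay a median of 7864 bp away in WT replicate 1 and 10728 bp in WT replicate 2. In either WT list it lay within 1000 bp at 93 members, within 5000 bp at 202 and within 10000 bp at 288. At Slc25a20 and Zfp787, named here after their values were seen, the gap was 4 bp, and at Prdm11 it was 292799 bp. Of the 497 member genes, 242 had an H3K27ac region in both WT libraries somewhere in the gene body or 5 kb upstream, and 180 had none in either (48.7% and 36.2%). Over all protein-coding genes these shares were 46.6% and 45.8%. Among genes with any merged promoter region they were 78.9% and 8.18%. The lists hold no height per region, so a member is a promoter where calling differed, and the signal behind the calls was not measured here.

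The profile around the start site shows where the calls sat, and for cKO H3K27ac its peak is largely set by the window of the rule. At -200 bp 77.4% of the member start sites were covered in cKO replicate 1 and 93.3% in cKO replicate 2. WT H3K27ac reached at most 8.70% in replicate 1 and 7.39% in replicate 2, at several positions over 1 kb downstream. H3K36me3, which the rule did not use, was under 1% at the start site in WT replicates 1 and 2 and cKO replicate 1, and 4.35% in cKO replicate 2. At 5 kb downstream it covered 32.6% and 35.9% of the sites in WT and 18.7% and 35.2% in cKO.

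**Figure D2:**
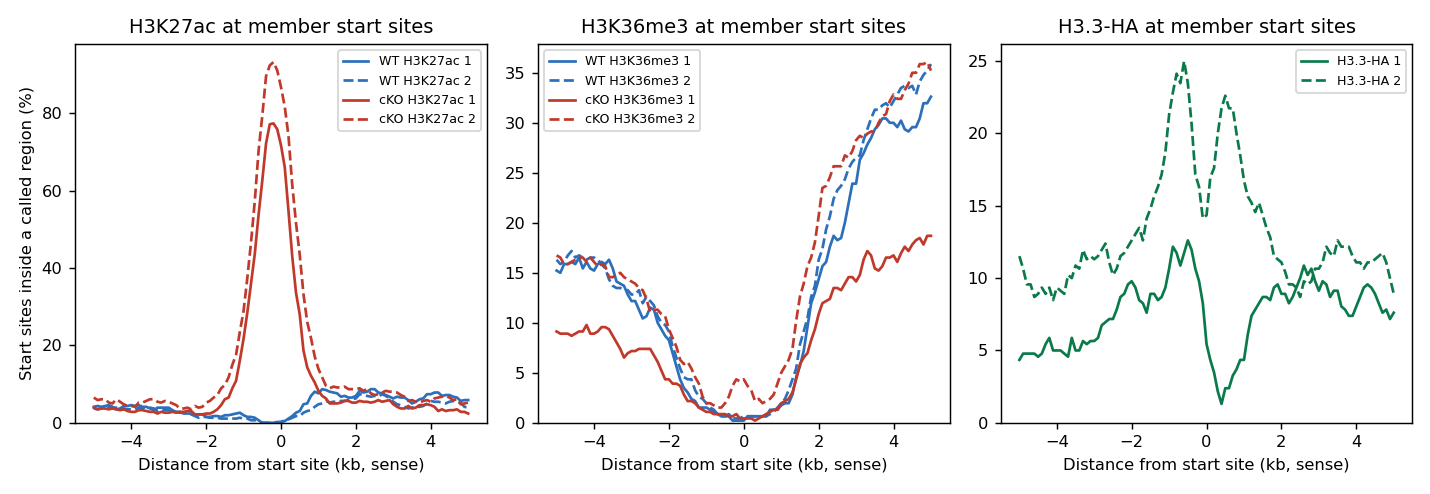
Percent of the 460 member start sites lying inside a called region (y axis) by distance from the start site in kb in the direction of transcription (x axis), for H3K27ac, H3K36me3 and H3.3-HA, with 1 line per library. cKO H3K27ac peaks at -200 bp, H3K36me3 rises downstream with cKO replicate 1 below the other 3 libraries, and H3.3-HA is highest at -500 bp in replicate 1 and -600 bp in replicate 2.

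Midpoints ran on across both edges of the window. Just inside the upstream edge lay the regions of Iscu and Nek8, with midpoints at -997 and -988 bp, and just outside it those of Slfn4 and Nlgn2, at -1005 and -1022 bp. Just inside the downstream edge lay Ramac and Dctn3, at 100 and 98 bp, and just outside it Rpl28 and Fuk, both at 101 bp. The region near Slfn4, a gene of the Schlafen family, was 5614 bp wide, wider than every member but those of Itgb7, Rgs2 and Elavl1.

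The 10 members with the greatest called length had diverse roles. The longest was at Itgb7 (chr15:102228466-102236187), the integrin beta7 subunit used in homing of leukocytes to the gut, with 5445 bp in cKO replicate 1 and 7722 bp in cKO replicate 2. At Rgs2 (chr1:144001204-144008090), a regulator of G-protein signaling, the lengths were 4486 and 6787 bp. At Elavl1 (chr8:4322378-4328560), which encodes the RNA-binding protein HuR, they were 4146 and 6183 bp. Those 3 regions were longer in both cKO libraries than any other member.

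The other 7 ranged from 2151 to 3077 bp in cKO replicate 1 and from 3534 to 4651 bp in cKO replicate 2. They were the shared promoter of Gtf2h1, a subunit of the repair and transcription factor TFIIH, and Hps5, Rad51b, which acts in homologous recombination, Cdc26, a subunit of the anaphase-promoting complex, Mtus1, a microtubule-associated protein, Cenpa, the centromeric histone H3 variant, Cpsf7, a subunit of the pre-mRNA cleavage factor, and Psmb9, an immunoproteasome subunit. At Cpsf7 the nearest WT regions lay 556 and 636 bp away, and at Itgb7 6937 and 7690 bp. H3.3-HA was called in the region in both replicates at Rgs2, Mtus1 and Cenpa, in 1 replicate at Itgb7, Elavl1, Rad51b, Cdc26, Cpsf7 and Psmb9 and in neither at Gtf2h1.

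Whether the member promoters held H3.3 in cells with the tagged protein was asked next, with H3.3-HA regions that the rule did not use. H3.3-HA replicate 1 overlapped 100 of the 460 regions (21.7%, Wilson 95% interval 18.2 to 25.7%) and replicate 2 overlapped 193 (42.0%, 37.5 to 46.5%). Both replicates overlapped 68 (14.8%, 11.8 to 18.3%) and neither overlapped 235 (51.1%). Over all 3889 merged promoter regions the share with both replicates was 28.5%. Intervals here and below cover counting error only. The replicates differed more than the intervals allow, so the share rests on which library is read.

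The same share was 42.6% (40.05 to 45.2%) in promoter regions called in all 4 libraries and 26.05% (20.6 to 32.3%) in WT-only promoter regions. In replicate 1 alone the shares were 21.7% in members, 48.3% in regions of all 4 libraries and 37.2% in WT-only regions. In replicate 2 alone they were 42.0%, 64.3% and 41.9%, so members and WT-only regions could not be told apart there. Wider regions have more room to overlap, and the classes differed in width. Among regions of 1 to 2 kb the share with both replicates was 14.2% (10.1 to 19.6%) in members, 20.9% (16.9 to 25.7%) in regions of all 4 libraries and 31.9% (22.3 to 43.4%) in WT-only regions. Among regions of 2 to 3 kb it was 26.3% (16.6 to 39.0%) in members and 28.5% (24.5 to 32.8%) in regions of all 4 libraries, a difference within the intervals, and 50% (8 of 16 regions, 28.0 to 72.0%) in WT-only regions. Among regions of 3 kb or more it was 27.8% (5 of 18 regions, 12.5 to 50.9%) in members. In regions of all 4 libraries it was 65.6% (61.8 to 69.3%), and the intervals did not meet. Regions of 3 kb or more reached 7722 bp in members and 28259 bp in regions of all 4 libraries, so width was not matched there. No test was run on these shares, since regions of the same libraries are not replicates.

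**Figure D3:**
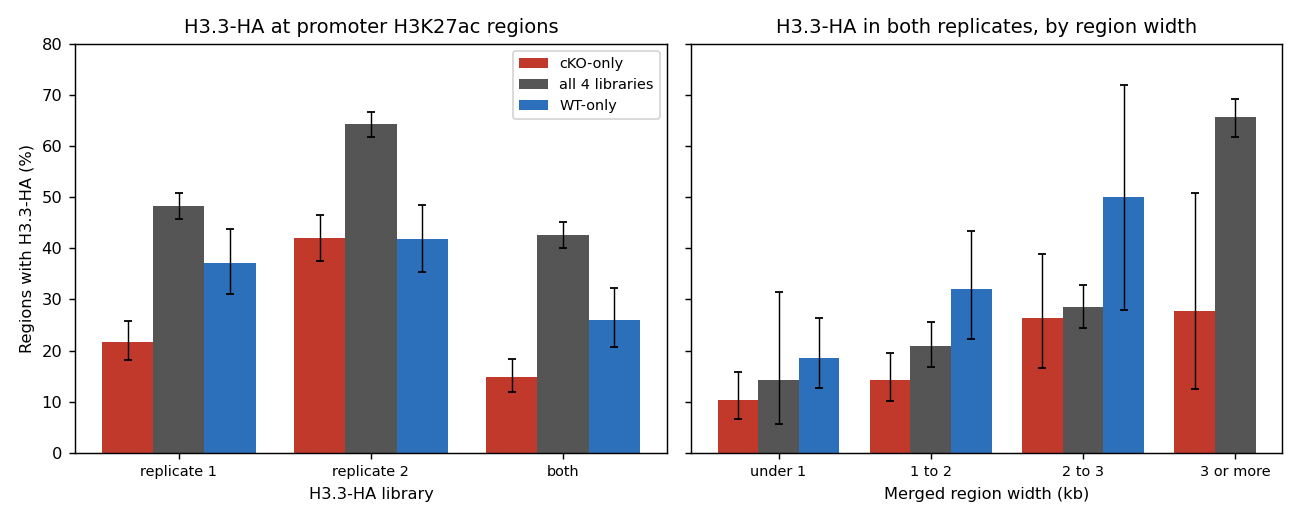
Percent of promoter H3K27ac regions overlapped by H3.3-HA (y axis) in cKO-only, all-library and WT-only classes, on the left for each replicate and both, on the right for both replicates by merged region width in kb. Bars are shares with Wilson 95% intervals, and the WT-only bar at 3 kb or more is left out because the class holds under 10 such regions; cKO-only regions are at 14.8% overall and at 26.3% between 2 and 3 kb.

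H3K36me3 over the gene body gave a second mark that did not enter the rule. The libraries were not alike. In cKO replicate 1 tags in regions made up 19.3%, against 46.5% in cKO replicate 2 and 47.1% and 50.2% in WT, so the counts of genes are given with and without that library. A region was present in the body of 404 and 405 of the 497 member genes in WT replicates 1 and 2 (81.3% and 81.5%), of 340 in cKO replicate 1 (68.4%) and of 400 in cKO replicate 2 (80.5%). Over all 21755 protein-coding genes the shares were 47.0% and 47.3% in WT and 41.0% and 47.2% in cKO. So most member genes carried H3K36me3 in WT, although no WT H3K27ac list overlapped the member region. Median coverage of the body was 29.2% and 32.7% in WT and 7.59% and 27.9% in cKO.

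A region called in both cKO and neither WT H3K36me3 library lay in the body of 27 of the 497 member genes (5.43%), where 4.19% of all protein-coding genes had one. Lost regions, called in both WT and neither cKO library, lay in 118 (23.7%), where 12.2% of all genes had one. Genes of promoter regions called in all 4 libraries had a gained region at 7.10% and a lost region at 21.9%. For genes of WT-only promoter regions these shares were 12.4% and 31.8%. Among genes with H3K36me3 in both WT libraries, a lost region lay in 118 of 391 member genes (30.2%, 25.8 to 34.9%) and in 2645 of all 9891 such genes (26.7%). Without cKO replicate 1 the shares were 32.5% and 29.0%. With all libraries the same share was 25.1% for genes of promoter regions called in all 4 libraries and 43.1% for those of WT-only regions. The gained count of the members was 131 without cKO replicate 1 (all genes 16.2%) and 71 without cKO replicate 2 (10.4%). It was 41 without WT replicate 1 (6.09%) and 52 without WT replicate 2 (7.03%). The lost count was 127 without cKO replicate 1 (13.2%), 220 without cKO replicate 2 (21.6%), 192 without WT replicate 1 (21.4%) and 185 without WT replicate 2 (20.5%).

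Coverage was higher in both cKO than in both WT libraries at 25 member genes (5.03%, background 4.16%) and lower at 191 (38.4%, background 19.7%). Genes of promoter regions called in all 4 libraries and of WT-only regions, which like the members often carry H3K36me3, were lower at 36.3% and 38.7%. They were higher at 7.23% and 3.23%. With cKO replicate 2 alone against both WT libraries, member coverage was higher at 154 genes (31.0%, all genes 20.9%) and lower at 191 (all genes 19.8%). Among genes with any merged promoter region, 33.2% were higher and 37.3% lower. Genes of promoter regions called in all 4 libraries were higher at 38.2% and lower at 36.3%, and those of WT-only regions at 30.4% and 38.7%. In the members the median difference from the WT mean was -12.1 percentage points in cKO replicate 1 and 0 in cKO replicate 2. H3K36me3 was limited to both cKO libraries at 2 member genes (0.402%, all genes 0.689%), and 14 had it in both WT and neither cKO library (2.82%, all genes 1.65%). Without cKO replicate 1 these counts were 13 (2.62%, all genes 2.12%) and 17 (3.42%, all genes 1.86%).

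Of the genes with a gained H3K36me3 region, Zbtb22, a zinc finger gene of chromosome 17, differed most. H3K36me3 regions covered 0% of its body in both WT libraries and 59.3% and 70.9% in cKO. Its annotation overlaps another protein-coding gene, so the region cannot be assigned to it alone. Banf1, a DNA-bridging protein of the nuclear envelope that also overlaps another gene, had 0% in both WT and 19.004% and 16.6% in cKO libraries. At Itpr1, an inositol trisphosphate receptor of the endoplasmic reticulum, coverage was 1.333% and 1.498% in WT and 4.56% and 14.8% in cKO. Both cKO libraries lay above both WT libraries at these 3 genes. The genes were chosen by a gained region and by this difference in coverage, so it is given without a test.

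At Cdc6, which loads the replicative helicase, coverage was 3.10% and 7.92% in WT and 10.3% and 49.6% in cKO. The cKO pair differed by more than the difference between the means, 24.4 points. At Lysmd1 it was 9.22% and 0% in WT and 13.9% and 46.5% in cKO, and at Naa10, the catalytic subunit of an N-terminal acetyltransferase, 0% and 9.88% against 9.88% and 24.6%. Kcnab2, a potassium channel subunit, and Tmem164 had cKO replicate 1 below and cKO replicate 2 above both WT libraries. Without cKO replicate 2 their differences turned to -10.8 and -9.97 points. Zbtb8os had 24.1% and 27.4% in WT and 27.4% and 36.8% in cKO.

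Rgs2, named for its H3K27ac length, had 18.7% and 17.99% in WT and 62.1% and 79.9% in cKO, with no WT value near the cKO values. It holds no gained region, since the merged region there also contained a WT call. The WT mean of 18.3% ± 0.498 compares with a cKO mean of 71.0% ± 12.6 (SD, n = 2 each, two-sided exact permutation p = 0.333, the smallest that 2 against 2 libraries can give). At Itgb7 both cKO libraries lay below both WT libraries, with a mean of 6.36% ± 1.47 in WT against 1.57% ± 2.22 in cKO (SD, n = 2 each, exact permutation p = 0.333).

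Among genes with a lost region, the greatest falls in coverage were at Tysnd1, P2ry2, Miga2, Dhrs11 and Mrpl52. Tysnd1, a peroxisomal protease, had 51.1% and 62.1% in WT and 6.90% in each cKO library. Dhrs11, a short-chain dehydrogenase, and Mrpl52, a mitochondrial ribosome protein, had 35.3% to 39.2% and 30.8% to 41.5% in WT and 0% in both cKO libraries. At P2ry2, a receptor for extracellular nucleotides, the WT libraries had 65.3% and 68.7% and the cKO libraries 6.92% and 39.3%. Miga2, which acts in mitochondrial fusion, had 48.9% and 47.9% in WT and 0% and 20.5% in cKO. The groups did not overlap at any of the 5 genes, which follows from choosing them by a lost region and the fall in coverage, so no test is given.

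**Figure D4:**
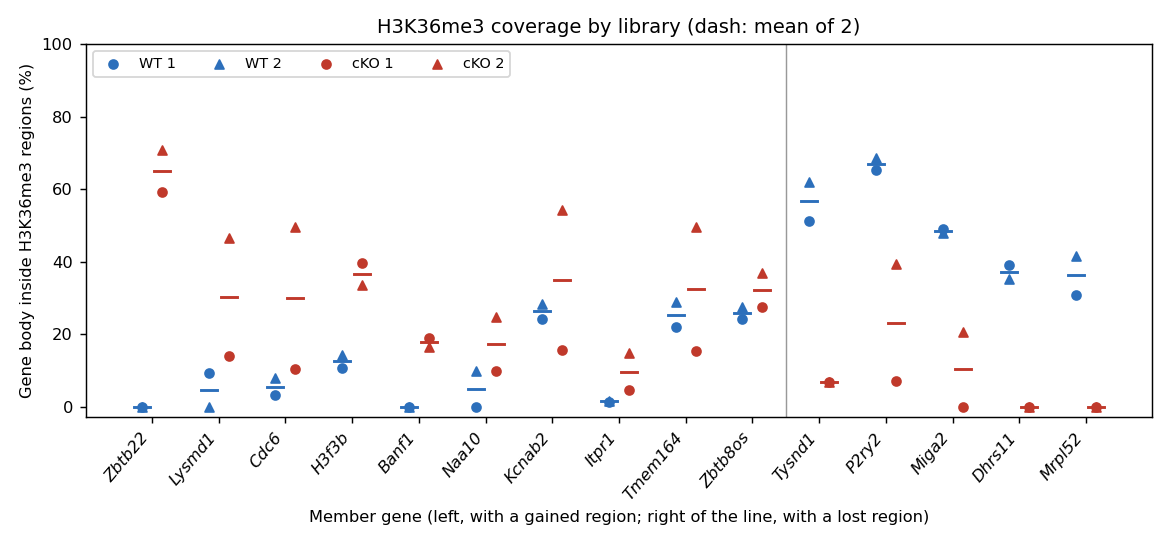
Percent of the gene body inside called H3K36me3 regions (y axis) for 10 member genes with a gained region and 5 with a lost region (x axis), 1 point per library and a dash at the mean of 2. Zbtb22 is at 0% in both WT and at 59.3% and 70.9% in cKO, and Dhrs11 and Mrpl52 are at 0% in both cKO libraries.

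The targeted genes came on opposite sides of the rule. H3f3b was itself a member, with a region at chr11:116024020-116025214 of 681 bp in cKO replicate 1 and 1195 bp in cKO replicate 2. The nearest WT regions lay 1302 and 1287 bp away. H3K36me3 covered 10.7% and 14.2% of its body in WT and 39.6% and 33.6% in cKO, a mean of 12.4% ± 2.51 and 36.6% ± 4.23 (SD, n = 2 each, exact permutation p = 0.333). By the account of the study, the floxed interval of H3f3b includes all of its exons. This region therefore lies at least partly in sequence that Cre removes, and the H3K36me3 over the gene body may lie there too. Where within the called regions the reads lie is not given by the lists. They therefore do not show whether that sequence was lost in the libraries labelled cKO, and every direction given here rests on the labels. By other assays, the study reported deletion of both genes by PCR and depletion of H3.3 RNA and protein in cKO BMDMs. The exact loxP positions and the share of cells with the deletion were not examined. The study noted that H3f3b was wholly deleted in some cKO samples and partly in others. H3.3-HA covered 437 bp of the region in replicate 1 and 0 bp in replicate 2. H3f3a was no member, and H3K36me3 regions covered a mean of 75.1% ± 3.90 of it in WT against 70.4% ± 3.63 in cKO (SD, n = 2 each, exact permutation p = 0.667).

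The member genes were then read against gene lists. Members are 2.28% of all protein-coding genes and 12.2% of the 4070 genes with any merged H3K27ac region at a promoter, and each list is given beside those shares. The genes of DNA replication and mitosis held 9 members of 87 (10.3%), or 9 of the 39 with any promoter region (23.1%). The interferon list held 4 of 117 (3.42%, and 4 of 27), and the list of p53 and the DNA damage response 3 of 60 (5%, and 3 of 23). Cell death held 0 of 47 and macrophage identity 0 of 61, where 11 and 13 genes had a promoter region. Both zeros depend on the libraries. Cell death held 1 member without WT replicate 2 and 2 without any one of the other libraries, and macrophage identity held 1 without WT replicate 1 or cKO replicate 1 and 3 without cKO replicate 2. The counts are a description, and none of them was tested. Without 1 library the replication count was 14 (without WT replicate 1 or cKO replicate 1) or 10 (without WT replicate 2 or cKO replicate 2). Leaving out a library loosens the rule for every gene. The 460 member regions became 743 and 702 without WT replicates 1 and 2, and 870 and 744 without cKO replicates 1 and 2. A rise in a list count is therefore not by itself a result about that list.

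The replication and mitosis members spanned the cell cycle. They included the G1 cyclin Ccnd1 (501 and 691 bp in cKO replicates 1 and 2). The cyclins of entry into S phase were Ccne1 (766 and 848 bp) and Ccne2 (821 and 1095 bp). Origin licensing gave Cdc6 (501 and 996 bp) and the helicase subunit Mcm5 (1757 and 1781 bp), and single-strand DNA binding gave Rpa2 (769 and 1313 bp). Mitosis gave the checkpoint target Cdc20 (1262 and 1521 bp), Cenpa (2506 and 3534 bp) and the kinesin Kif20a, whose region (2003 and 3411 bp) is shared with Brd8.

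H3K36me3 was present in both WT libraries at each of these 9 genes, from 3.10% and 7.92% of the body at Cdc6 to 76.4% and 75.9% at Ccnd1. At Mcm5 it was 58.4% and 66.7% in WT and 67.7% and 94.4% in cKO, and at Ccne2 59.2% and 61.0% against 66.8% and 73.2%. Both cKO libraries lay above both WT libraries at 4 of the 9, Mcm5, Ccne2, Ccnd1 and Cdc6 (all genes 4.16%), with an exact permutation p of 0.333 each. That share of all genes is not a matched one. It includes the 48.7% of genes with no H3K36me3 region in any library, where cKO cannot lie above. Cdc6 is also among the genes chosen by a gained region. At the other 5, Ccne1, Cdc20, Cenpa, Kif20a and Rpa2, the libraries overlapped. Ccne1, for example, had 32.2% and 48.1% in WT and 10.2% and 45.2% in cKO.

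Iigp1, an immunity-related GTPase, had the longest region of the 4 interferon members, with 2168 and 2658 bp in cKO replicates 1 and 2. Its nearest WT region lay 95968 and 95902 bp away. Tgtp1, whose region (681 and 1046 bp) is shared with Gm12185, Ifit1bl1 (752 and 501 bp) and the antiviral transmembrane gene Ifitm1 (501 and 632 bp) were all shorter than the median member in each cKO library. None of the 4 regions was overlapped by H3.3-HA in either replicate. H3K36me3 covered 0% of the body in all 4 libraries at Ifit1bl1, Ifitm1 and Tgtp1, and at Iigp1 in all but cKO replicate 2, where it covered 32.7%. In RNA called by the study, Ifitm1 was higher in cKO on day 7, and Ifit1bl1 and Iigp1 on day 8. Tgtp1 was not among the matched genes higher on either day. Tgtp1 and the IFIT and IFITM genes have close paralogs, and how reads shared between copies were placed was not examined.

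Among DNA repair members, Brca2 (1822 and 2063 bp), Polh, a translesion polymerase (1174 and 2603 bp), and Xrcc6, the Ku70 subunit that shares its region with Desi1 (645 and 1094 bp), carried H3K36me3 in all 4 libraries. The nearest WT H3K27ac region at Polh lay 26 bp away in WT replicate 1. The inflammation list held Nfkb2, an NF-kappaB subunit (2693 and 2382 bp), Atf3, a stress-induced repressor (1481 and 2083 bp), and the neutrophil chemokine Cxcl2 (1299 and 1383 bp). These were 3 of 73 list genes, or 3 of the 28 with any promoter region (10.7%, against 12.2% for all such genes). WT regions lay 295 and 88 bp from the Cxcl2 region and 31211 and 31309 bp from that of Nfkb2. H3.3-HA overlapped the Cxcl2 region in both replicates.

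The histone and chromatin list held 4 of 86 (4.65%), or 4 of the 33 with any promoter region (12.1%, against 12.2% for all such genes). Besides H3f3b these were H2afz, the H2A.Z variant, Hdac1, a histone deacetylase, and Atrx, a remodeler that works with DAXX to place H3.3 at heterochromatin. H2afz had 0% and 10.1% H3K36me3 coverage in WT and 44.3% and 49.6% in cKO, means of 5.03% ± 7.11 and 46.9% ± 3.77 (SD, n = 2 each, exact permutation p = 0.333). Atrx had 42.9% and 41.2% in WT and 19.4% and 58.0% in cKO, so the cKO libraries lay on both sides of WT. The stress list held Chac1 and Atf3 (2 of 42), the sterol list Acat2 and Dhcr7 (2 of 45), antigen presentation Psmb9 (1 of 31) and the erythroid list the transferrin receptor Tfrc (1 of 18). Among the list genes with any promoter region these were 2 of 21 (9.52%), 2 of 20 (10%), 1 of 9 (11.1%) and 1 of 1. Without cKO replicate 1 the sterol list held 5 members and antigen presentation 6, and the stress list held 5 without WT replicate 1 and 4 without either cKO library. All member regions rose from 460 to 870, 743 and 744 without cKO replicate 1, WT replicate 1 and cKO replicate 2. The other 7 lists of cell type markers held 0 members, but the neutrophil list held 1 without WT replicate 2 and 2 without cKO replicate 1.

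The study called genes with higher or lower RNA in cKO BMDMs, in libraries outside these lists. Members are 2.28% of all protein-coding genes. Of 341 matched genes higher on day 7, 9 were members (2.64%), and of 494 higher on day 8, 19 were (3.85%). Of 228 lower on day 7, 4 were members (1.75%), and of 288 lower on day 8, 8 were (2.78%). Among the genes with any promoter region the shares were 13.2%, 12.6%, 5.48% and 9.20% in that order, against 12.2% for all such genes. Members with higher RNA on both days were Adgre5, Ezr, Itgb7, Itpr1 and Smad7. Those with lower RNA on day 8 included the sterol genes Acat2, Dhcr7 and Tmem97, Tfrc, Egr1 and H3f3b itself. Rows of the lists without a gene symbol, and symbols that the annotation does not hold, were not used here.

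The member promoters were rich in CpG. In windows of 300 bp, from 250 bp upstream to 50 bp downstream of the start site, the median GC content was 62% and the median ratio of observed to expected CpG was 0.819. The ratio was 0.781 in promoters of regions called in all 4 libraries, 0.529 in WT-only promoters and 0.530 over all 21755 protein-coding genes. It was at least 0.6 at 384 of 460 members (83.5%, 79.8 to 86.6%), 72.8% of the promoters called in all 4 libraries (70.4 to 75.01%), 42.8% of WT-only promoters (36.4 to 49.5%) and 44.7% of all genes. Members that went the other way included Tgtp1, Ifit1bl1 and Itgb7, whose sequences are printed above. Windows of regions lay at the annotated start site nearest to the region midpoint, and those of all genes at the 5′ end of the gene.

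Of 14 motifs searched on both strands, the GC box bound by Sp1 was the most frequent, in 312 member windows (67.8%, 63.4 to 71.9%) against 43.4% of all promoters and 59.4% of the promoters called in all 4 libraries. The CCAAT box of NF-Y was in 43.3%, against 38.9% and 35.2%. The YY1 motif (AAGATGGCG) was in 26 members (5.65%, 3.89 to 8.15%), against 1.70% of all promoters and 4.10% of those called in all 4 libraries. The ETS motif (CCGGAAGT) was in 8.48%, against 4.73% of all promoters and 9.84% of those called in all 4 libraries. The NRF1 motif (GCGCATGCG) was in 4.57%, against 2.17% and 3.75%, and CRE in 4.78%, against 2.45% and 3.54%. ISRE was in 15 members (3.26%, 1.99 to 5.31%) against 3.57% of all promoters, and PU.1 in 3.91% against 3.25%. The TATA box was in 6.09% against 12.7%, AP-1 (TGANTCA) in 3.91% against 6.88% and GAS in 5.22% against 8.11%. E-box (CACGTG), E2F (TTTGGCGC) and CARE (TGATGNAAT) matches were in 8.91%, 1.30% and 0.217% of members, against 7.81%, 0.699% and 0.965% of all promoters.

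For ISRE the interval of the members included the share of all promoters, and for GC box, YY1, ETS, NRF1 and CRE it lay above it. Members also differed from all promoters in GC content, with a median of 62% against 55%, and its part in these shares was not tested. A match is not a bound site. In windows of 1100 bp the members stood at 81.1% for the GC box, 13.7% for ISRE and 7.61% for YY1, against 53.1%, 14.3% and 2.74% of all promoters. With 300 bp windows at the 5′ end of the gene, as for all promoters, members stood at 63.0% for the GC box and 4.57% for YY1. ETS, NRF1, CRE and ISRE stood at 8.70%, 4.13%, 3.91% and 2.83% there.

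**Figure D5:**
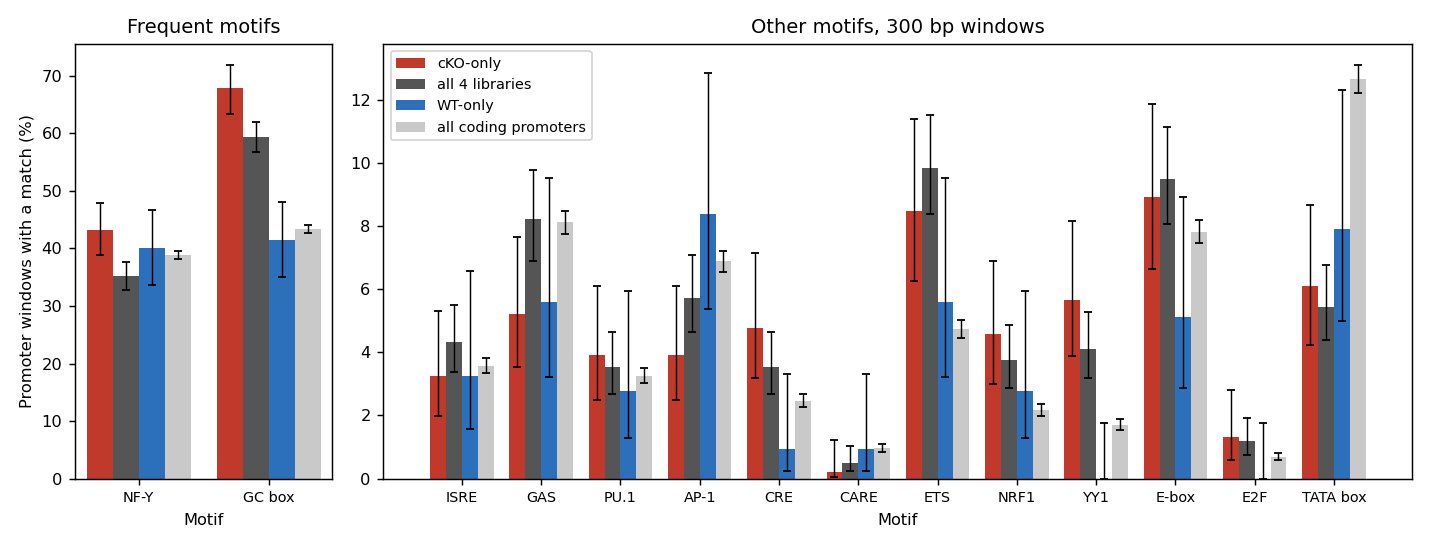
Percent of 300 bp promoter windows with a match to each motif (y axis) in cKO-only, all-library and WT-only promoter regions and in all protein-coding promoters, with Wilson 95% intervals. The GC box is in 67.8% of cKO-only windows against 43.4% of all promoters, while ISRE is in 3.26% against 3.57%.

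By chromosome, members were most frequent per gene on chromosomes 17 (41 regions, 38.8 per 1000 protein-coding genes), 19 (26 regions, 36.2) and 8 (32 regions, 30.8), against 21.1 over all chromosomes. The lowest rate was on chromosome 6, with 12 regions or 10.8 per 1000. On chromosome 17, 10 of the 41 regions lay between Cd320 and Znrd1 (chr17:33842785-36958968), an interval of 159 protein-coding genes chosen after its values were seen. It includes Psmb9, Zbtb22, Ring1, a Polycomb E3 ligase, and Gnl1, and overlaps the major histocompatibility complex.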

How the data were processed

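CUT&RUN libraries of mouse BMDMs were read through the region lists of 10 of the 15 samples, and the 5 IgG samples enter only as the background of the calls. Alignment by the authors used Bowtie2 (local mode, mm10), and they called regions with HOMER in histone mode, separately for each library. Per the file headers, calling used a peak size of 500 bp, 4-fold enrichment over IgG and, over the control, a Poisson p-value threshold of 1e-04. The deposited lists give start and end in bp, and their score column holds a single constant, so regions were used by presence and length only. List positions, lengths and overlaps were computed with Python 3.11.15 and numpy 2.4.6.

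H3K27ac and H3K36me3 lists were merged where regions overlapped or touched, and a gained region was found in both cKO lists but neither WT list. Genes came from GENCODE M21, promoter sequence from GRCm38.p6. Coverage per gene was compared over 2 against 2 libraries with an exact permutation test, two-sided, whose smallest p is 0.333. Depth was 5365319 to 29988098 tags per library. Named genes were the 10 longest members, the members of 18 gene lists, 10 genes with a gained and 5 with a lost H3K36me3 region, the window edges, H3f3a and H3f3b. Other genes are named where the text says so. The members and lists were chosen with earlier results of these data known. The routines were tested on simulated data. Alternatives included stricter overlaps, widths and windows, lists of equal length and leaving out each library.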

Additional observations from a re-analysis of the deposited data

How the results depend on the processing

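The number of member regions stayed between 354 and 462 with regions over 50% covered in both cKO libraries, a 500 bp merging distance, a minimum width of 1000 bp, no WT region within 1000 bp, coding transcripts only or 1 start site per gene. It was 729 with a window of 1 kb on both sides, 753 with lists of equal length and 702 to 870 when 1 H3K27ac library was left out. The share with H3.3-HA in both replicates was 4.13% with 50% of the region covered and 3.91% with H3.3-HA regions of at least 1000 bp. It was 21.7% to 42.0% with 1 replicate left out. Chosen after seeing the data, it was 14.2% in members of 1 to 2 kb and 18.7%, 18.1%, 13.3% and 13.0% when members were chosen without WT replicate 1, WT replicate 2, cKO replicate 1 and cKO replicate 2. The gained H3K36me3 count was 14 with regions of at least 1000 bp, and 41 to 131 with 1 library left out, and the lost count 127 to 220. With 1 H3K27ac library left out, list counts ranged from 5 to 7 (interferon), 4 to 5 (p53 and DNA damage response), 10 to 14 (replication and mitosis), 4 to 8 (inflammation), 7 to 11 (histone and chromatin), 1 to 6 (antigen presentation), 2 to 5 (sterol, and also stress), 1 to 2 (cell death), 0 to 3 (macrophage identity) and 0 to 2 (neutrophil). These list counts belong to the 702 to 870 member regions of the looser rule. Without cKO replicate 1 the interferon count was 7. The p53 count was 5 without WT replicate 2 or cKO replicate 1, and the inflammation count 5, 6 and 8 without WT replicate 1, cKO replicate 1 and cKO replicate 2. Without cKO H3K36me3 replicate 1, chosen after seeing the data, the number of genes with cKO coverage above WT was 154 in place of 25.

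Of 96 values for 16 named genes under an alternative, 94 kept their direction. All of these genes but H3f3a were chosen by a gained or lost region and by this difference. Their direction was therefore largely set by the choice. The exceptions were Kcnab2 (-10.8 points) and Tmem164 (-9.97 points) without cKO H3K36me3 replicate 2. Without cKO replicate 1 they were 27.95 and 24.1 points. The cause was not tested. With a replicate block the differences were the same by construction, such as 24.2 points at H3f3b, with a smallest possible exact p of 0.5. The correlation of deviations between same-numbered libraries was 0.135 over member genes for H3K36me3 and -0.00730 for H3K27ac, and the libraries share only a number. Region calls without heights limit every count to presence and length.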
